A study of Mus musculus with 6 samples.

Results

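The cytosolic ribosomal protein genes encode the protein components of the ribosome that translates nuclear-encoded messages, and their transcripts were followed here in sorted hippocampal cells of the mouse after long demyelination. A gene was taken as a family member when its symbol in the deposited table was Rpl or Rps with a number and at most 1 of the endings a, x, l or y and a further digit, or was Rplp0, Rplp1, Rplp2 or Rpsa, and when all 6 libraries had a value. This gave 83 of the 20323 genes with values, 51 of the large and 32 of the small subunit. Another 2 genes with such names, Rpl10l and Rpl39l, were blank in every library. The choice used names and the presence of values only, and it leaves out kinases such as the Rps6ka genes and copies with other names.

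RNA sequencing was done on GFP+ cells that had been sorted magnetically from the hippocampus of Nestin-CreERT2;Rosa26-mGFP mice, 1 animal per library. The Cre is driven by Nestin, so the sort holds cells that expressed Nestin at induction together with their progeny, and the samples are labelled neural progenitor cells. All 6 animals had cuprizone, a copper chelator that strips myelin, for 10 weeks and then 4 weeks of recovery. Vehicle (3 animals) was saline with 0.1% BSA, and Nrg (3 animals) was neuregulin 1 beta 1 (Nrg-1β1), a ligand of ErbB receptors, at 60 µg per kg per day by the series description, although the sample labels write the dose in grams. No ages are given in the sources used here, and the comparison asks how the growth factor altered these cells' transcripts.

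Each ribosomal protein is normally made in an amount matched to the others, because a subunit is assembled from single copies of nearly all of them on ribosomal RNA in the nucleolus. Most of their messages begin with a C and a run of pyrimidines, the 5′ terminal oligopyrimidine tract, through which the kinase mTORC1 and the protein LARP1 govern translation and stability of the whole class. Mammalian genomes also hold very many processed copies of these genes, made by reverse transcription of the messages, and a short read can fit the gene and a copy equally well.

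To show the start of the genes that passed the test, 60 bases around the annotated start are given for each, from 40 bases before it to 20 from it, on the coding strand of GRCm38.p6 (RefSeq). Capitals mark a run of 6 or more pyrimidines that opens with C within 10 bases of the start.
Rpl13a, chr7:45128726-45128785, minus strand: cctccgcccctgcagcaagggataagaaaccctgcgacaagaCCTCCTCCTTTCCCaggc
Rps21, chr2:180257339-180257398, plus strand: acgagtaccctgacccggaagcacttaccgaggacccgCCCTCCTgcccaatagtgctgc
Rpl12, chr2:32961672-32961731, plus strand: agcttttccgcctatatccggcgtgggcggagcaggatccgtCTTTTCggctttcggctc
Rps7, chr12:28635934-28635993, minus strand: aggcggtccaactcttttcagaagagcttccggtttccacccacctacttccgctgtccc
Rpl4, chr9:64173347-64173406, plus strand: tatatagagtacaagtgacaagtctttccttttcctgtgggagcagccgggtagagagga
Rpl13a, Rps21 and Rpl12 carried such a run and Rps7 and Rpl4 did not, and a further annotated start of Rps21 had none. In the bases printed for Rps7 and for Rpl4, a pyrimidine run that opens with C begins more than 10 bases before the annotated start. These runs were not counted, although that of Rpl4 extends to within 10 bases of the start. The absence of a run thus depends on the annotated start and the span searched. Only the coding strand was searched, and runs were allowed any length from 6 bases. A run was present at 31 of the 62 family members with an entry (50%) and at 20.4% of the 27025 genes in the table of promoters. The median difference between Nrg and Vehicle was 0.84 on the log2 scale for the 31 genes with the run and 0.83 for the 31 without it.

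Levels are given as deposited, on a log2(normalized count + 4) scale on which a gene with no read stands at 2, and differences are Nrg minus Vehicle on that scale. Recovered depth was very unequal: Vehicle libraries 1 and 3 held 72953034 and 47076006 reads, Vehicle library 2 held 1075813, and the Nrg libraries held 567073 to 1327003. Vehicle library 2 was thus as shallow as the Nrg libraries, and depth was largely confounded with treatment. Ribosomal protein genes took 2863 to 12309 reads in the Nrg libraries and 6023, 505866 and 166321 in the smallest, the largest and the remaining Vehicle library, and 67 of the 83 genes had at least 10 reads in every library. Marker genes of other cells also differed: 8 of 13 microglial markers fell (summed level 8217 to 14420 normalized counts in Vehicle and 2975 to 4096 in Nrg), as did 9 of 12 endothelial (938 to 4133 against 215 to 322), 3 of 6 choroid plexus (1510 to 4851 against 128 to 204) and all 4 measured of 5 erythroid markers (3291 to 9484 against 438 to 1994), where 0.625% of all genes fell (limma). limma-voom called 1 of these choroid plexus markers and 0 of the microglial, endothelial and erythroid ones, although all 13, 12, 6 and 4 lay under an unadjusted p of 0.05 in limma. The 8 astrocyte markers (25825 to 37961 against 47251 to 47712), 9 neuronal markers (2494 to 4757 against 6447 to 8847), 8 oligodendrocyte, 5 oligodendrocyte progenitor and 10 neural progenitor markers had 0 genes past the test, with 4, 4, 2, 2 and 3 at an unadjusted p under 0.05 and 0 with limma-voom. The neural progenitor markers summed to 874 to 1158 in Vehicle and 1069 to 1706 in Nrg, and no marker of any list was without reads in a whole group. The part of these differences in the ribosomal protein results was not tested, and in such bulk samples fewer cells of a type and less RNA per cell cannot be told apart.

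Within the family the 6 libraries fell into 3 pairs, of which 1 joined a Vehicle with a Nrg library and the other two lay within a treatment. Across the 83 genes, Pearson's r of the log2 values was 0.96 between Vehicle libraries 1 and 3, 0.96 between Vehicle library 2 and Nrg library 3, and 0.94 between Nrg libraries 1 and 2. The other 12 pairings lay between 0.69 and 0.82. The same 3 pairings gave 0.89, 0.89 and 0.93 over the 6731 genes whose normalized count averaged 50 or more, where the other 12 ranged from 0.77 to 0.88. These values describe genes measured in the same libraries and are no test, and the paired libraries also shared the size of a single read, 0.0605 and 0.0605, 3.09 and 3.04, and 5.17 and 5.11 normalized counts. The labels give no date, batch or run that could be set beside the pairs.

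**Figure D1:**
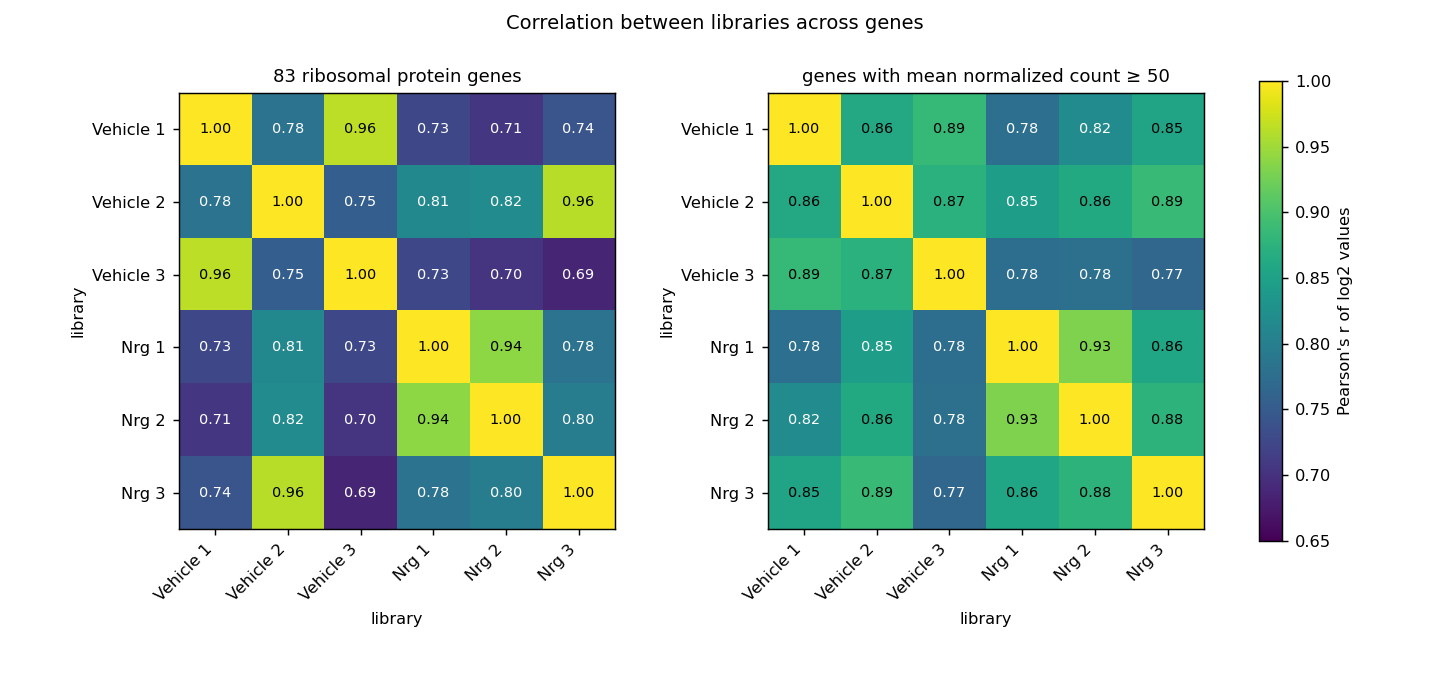
Pearson's r between each pair of libraries across the 83 ribosomal protein genes (left) and across the 6731 genes averaging 50 or more (right); the colour and the printed number both give r. On the left 3 pairs reach 0.94 to 0.96, and one of them joins Vehicle library 2 with Nrg library 3.

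The stalk gene Rplp2 and the genes Rpl10a and Rpl5 made the pairing easy to see. Rplp2, which encodes an acidic protein of the lateral stalk that recruits elongation factors, stood at 5.28, 9.58 and 4.00 in Vehicle libraries 1 to 3 and at 6.81, 7.25 and 10.84 in the Nrg libraries. Rpl10a had 6.88, 8.44 and 5.37 in Vehicle and 5.93, 6.73 and 9.93 in Nrg. Rpl5, whose product carries 5S ribosomal RNA into the large subunit, had 7.49, 8.78 and 5.78 in Vehicle and 7.26, 7.70 and 10.26 in Nrg. Each was highest in Nrg library 3 and next highest in Vehicle library 2, the groups overlapped, and none passed the test (adjusted p = 0.431, 0.735 and 0.53, limma). Rpl5 and Rpl10a were chosen after their values were seen.

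Between the treatments, 5 of the 83 genes rose in the Nrg libraries at an adjusted p under 0.05 (limma over all 20323 genes), namely Rpl13a, Rps21, Rpl12, Rps7 and Rpl4, and 0 fell. The background was 0.438% of all genes for a rise and 0.625% for a fall, against 6.02% of the family for a rise. At an unadjusted p under 0.05, 35 members were higher and 3 lower, where 13% of all genes passed in either direction, and limma-voom called 0 lower in either form. A positive difference was found for 70 of the 83 genes (84.3%) and for 52.2% of all genes. The median difference was 0.77 in the family and 0.03 over all genes, with a range from -1.54 to 3.52. The groups did not overlap for 17 members (20.5%), all higher in Nrg, where 7.37% of all genes were higher and 10.4% lower without overlap. Both subunits shifted alike in direction, with a median of 0.77 and 3 of 51 genes past the test in the large subunit and 0.81 and 2 of 32 in the small one; no test of the difference between subunits was made.

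The number of calls moved with the scaling and the model. Centring on library medians called 17 members where 1.65% of all genes rose and 0.807% fell, and quantile normalization called 1 where 0.059% rose and 0.261% fell, so the split over all genes went from 89 higher and 127 lower to 335 and 164 and to 12 and 53. limma-voom called 2 members by library totals, where 0.064% of genes rose and 0.00492% fell, and 1 by the deposited scale factors, where 0.0935% rose and 0.0148% fell. A mean filter at 50 normalized counts left 1 call (where 0.163% of the genes kept rose and 0.565% fell), and a pseudocount of 1 left 3 (0.241% and 0.394%).

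**Figure D2:**
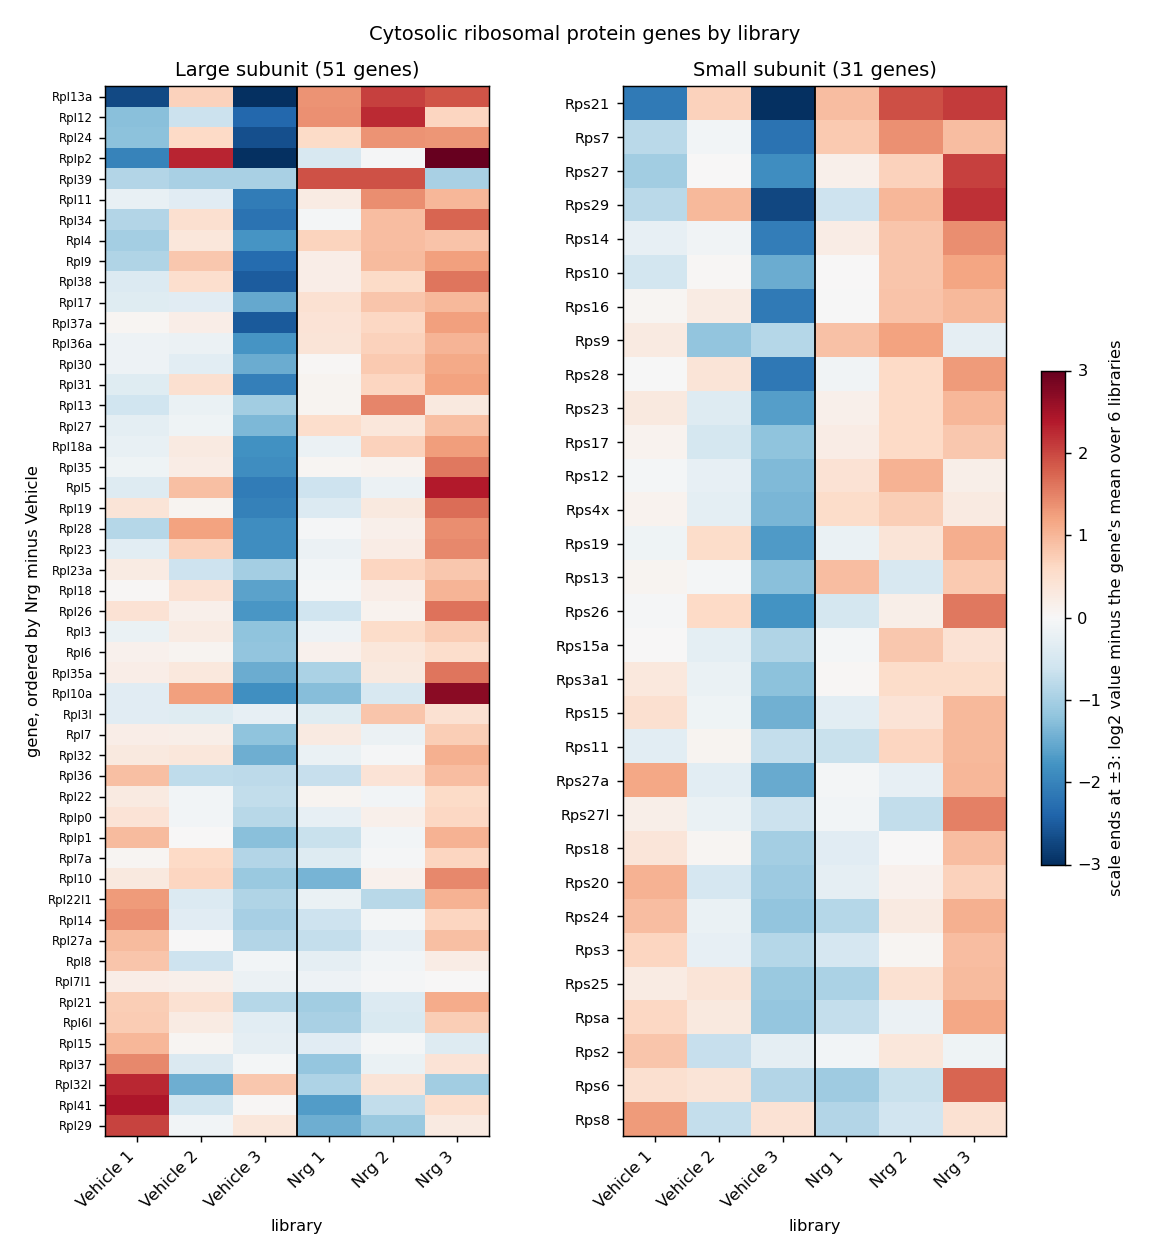
Log2 value of 82 of the 83 genes minus its mean over the 6 libraries, with large subunit genes on the left and small subunit genes on the right, ordered from the largest to the smallest difference; the colour scale ends at 3 in both directions. Over all 83 genes, Vehicle library 3 is the lowest of the 6 for 66 and Nrg library 3 the highest for 52, while Vehicle library 1 is the highest for 16, most of them at the bottom of each panel.

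Single libraries stood apart, and the median difference and the number of calls changed when one was left out. Vehicle library 3 was the lowest of the 6 for 66 members (79.5%), against 11.5% of all genes. Nrg library 3 was the highest for 52 members, for which no share over all genes was taken. Over all genes, ties at no reads went to the first library in order. A read was found for 15624 genes in Nrg library 3 and for 18715 in Vehicle library 3, so the 11.5% is not a share among genes of like level. With each gene centred on its own mean, the members averaged 0.10, 0.06 and -1.34 in Vehicle libraries 1 to 3 and -0.17, 0.36 and 0.99 in the Nrg libraries, so Nrg library 1 lay below Vehicle libraries 1 and 2. Over all genes the calls went from 216 to between 0 and 56 when 1 library was left out. Without Vehicle library 3 the median difference was 0.28 and 0 members passed, where 0% of all genes rose and 0.0197% fell; 18 members and 7.03% of all genes lay under an unadjusted p of 0.05 (limma). Without Nrg library 3 it was 0.51 with 0 members and 0% of all genes past the test (11 members and 16.7% of all genes unadjusted). Without Vehicle library 2, Nrg library 1 or Nrg library 2 the median was 1.00, 1.06 and 0.84 with 0 members and 0% of all genes past the test (26, 18 and 4 members and 12.7, 11.2 and 11.5% of all genes unadjusted). Without Vehicle library 1 it was 1.01 and Rpl12 alone passed, where 0.0738% of all genes rose and 0.202% fell (39 members and 9.68% unadjusted). The spread between Vehicle libraries, which differed in depth, was wider for this family than over all genes, with a median SD of 0.98 against 0.34. In Nrg it was 0.68 against 0.55. Of the 83 members 75 averaged 50 normalized counts or more, against 6731 of the 20323 genes. The SDs are thus not set against genes of like level.

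Of the large subunit genes, Rpl13a showed the largest difference. Its product is a ribosomal protein that can also leave the ribosome to silence inflammatory messages in interferon-treated human monocytes. It stood at 4.54, 7.94 and 3.97 in the Vehicle libraries and at 8.59, 9.29 and 9.14 in the Nrg libraries, from 319, 78, 193, 74, 122 and 184 reads. The groups did not overlap, and Vehicle library 2 lay nearer to the Nrg libraries than to the other Vehicle libraries. The mean was 5.48 ± 2.14 in Vehicle and 9.01 ± 0.37 in Nrg (SD, n = 3 each), which differed by 3.52 ± 0.65 (SE, adjusted p = 0.0116, limma). Other fits ended this call: with read depth class as a term the difference was 1.07 (adjusted p = 0.566), and with its near-identical copies summed in it was -0.32 (adjusted p = 0.763, limma).

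Rpl12, which sits at the base of the stalk where elongation factors bind, had 4.94, 5.56 and 3.85 in Vehicle and 7.57, 8.46 and 6.86 in Nrg, with all 3 Nrg libraries above all Vehicle libraries. It differed by 2.84 ± 0.45 (SE, n = 3 each, adjusted p = 0.00477, limma), and its lowest depth was 14 reads, in Vehicle library 2. Rpl4, a protein with a long loop that lines the peptide exit tunnel, had 7.83, 9.18 and 7.09 in Vehicle and 9.53, 9.79 and 9.72 in Nrg. Its Nrg values were tightly grouped and Vehicle library 2 was close beneath them, and the difference was 1.65 ± 0.39 (SE, n = 3 each, adjusted p = 0.048, limma).

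Of the small subunit genes, Rps21 had 4.17, 6.99 and 2.76 in Vehicle and 7.22, 8.23 and 8.40 in Nrg. Nrg library 1 stood only just above Vehicle library 2, and the difference was 3.31 ± 0.68 (SE, n = 3 each, adjusted p = 0.0246, limma). Rps7, whose product can bind the p53 regulator MDM2 when ribosome assembly fails, had 5.71, 6.45 and 4.31 in Vehicle and 7.31, 7.90 and 7.44 in Nrg. Its groups were separate, with a difference of 2.06 ± 0.43 (SE, n = 3 each, adjusted p = 0.026, limma).

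Leaving out 1 library ended the call of Rpl13a (adjusted p from 0.103 to 0.44), Rps21 (0.139 to 0.483), Rps7 (0.0902 to 0.414) and Rpl4 (0.188 to 0.467, limma) in each of the 6 cases, and that of Rpl12 in 5 of 6 (0.032 to 0.344), while the differences ranged from 2.77 to 4.75 for Rpl13a, 2.37 to 4.48 for Rps21, 1.47 to 2.54 for Rps7, 1.17 to 2.22 for Rpl4 and 2.38 to 3.23 for Rpl12. With read depth class as a term all 5 calls ended as well, and with copies summed in that of Rps7 ended too (difference 0.85, adjusted p = 0.24, limma). Next by p among the higher members were Rpl24, Rps14 and Rpl11, which missed the threshold. Rpl24, which forms a bridge to the small subunit and carries the Belly spot and tail mutation in mice, had 4.93, 6.77 and 3.53 in Vehicle and 6.75, 7.51 and 7.49 in Nrg (difference 2.17, adjusted p = 0.0621, limma). Rps14, lost in the human 5q- syndrome, differed by 1.63 and Rpl11, an MDM2 binder that travels with 5S RNA, by 1.76 (adjusted p = 0.0653 and 0.0703, limma), both without overlap of the groups.

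**Figure D3:**
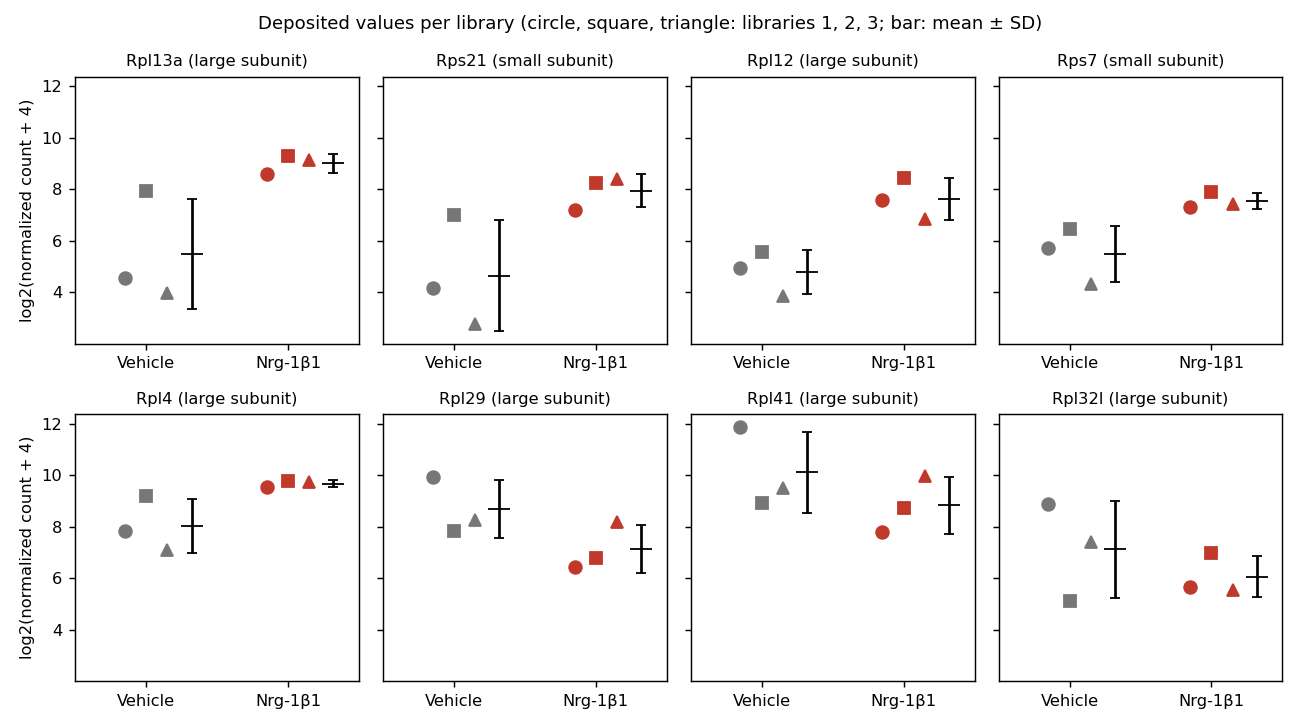
Deposited log2(normalized count + 4) of the 5 genes that passed the test and of 3 genes with negative differences, with libraries 1, 2 and 3 of each group as circle, square and triangle and the mean ± SD as a bar. For Rpl13a and Rps21 the Vehicle square, at 7.94 and 6.99, stands far above the other Vehicle libraries, and for Rpl29, Rpl41 and Rpl32l the Nrg triangle lies within the range of Vehicle.

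A negative difference was found for 13 members, and none of them passed. Rpl29, Rpl41 and Rpl32l were among the 4 with the smallest p. Rpl29 had 9.95, 7.84 and 8.26 in Vehicle and 6.44, 6.80 and 8.19 in Nrg, a difference of -1.54 ± 0.47 (SE, n = 3 each, adjusted p = 0.125, limma). Rpl41, a tiny, strongly basic peptide at the interface of the subunits, had 11.89, 8.92 and 9.51 in Vehicle and 7.79, 8.72 and 9.98 in Nrg (difference -1.28, adjusted p = 0.353, limma). In both genes Nrg libraries 1 and 2 were the lowest and Vehicle library 1 the highest, and Nrg library 3 fell among the Vehicle values. Rpl32l, a member by name whose transcript matches the Rpl32 coding sequence at 96.0% identity, differed by -1.07 and was highest in Vehicle library 1 at 8.87.

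Among members above the family's median level, the differences nearest to 0 were those of Rps6 (0.01 ± 0.53), Rpl14 (-0.02 ± 0.45), Rpl27a (-0.05 ± 0.42) and Rpl8 (-0.08 ± 0.35, all SE). Rps6 encodes the protein that S6 kinase phosphorylates downstream of mTORC1. Its values were 9.19, 9.10 and 7.83 in Vehicle and 7.65, 8.05 and 10.47 in Nrg, so a mean difference near 0 came from libraries that spread over nearly the whole range of both groups. Rpl8, by contrast, stayed between 9.63 and 11.07 in Vehicle and between 9.97 and 10.48 in Nrg.

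The stalk and the laminin receptor gene gave no call. Rplp0, the stalk's anchor, had 9.08, 8.58 and 7.84 in Vehicle and 8.43, 8.82 and 9.29 in Nrg (difference 0.35 ± 0.33, SE). Rplp1 differed by 0.19 ± 0.47 and Rplp2 by 2.01 ± 1.02 (SE), the latter with the wide spread described above. Rpsa, whose product is both a small subunit protein and a laminin-binding protein, differed by 0.17 ± 0.45 (SE). Their adjusted p were 0.709, 0.866, 0.431 and 0.879 (limma), and the groups overlapped in each.

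Several members are paralogues of a core gene rather than standard subunits. Rpl22l1 had 6.38, 4.68 and 4.19 in Vehicle and 4.90, 4.27 and 6.15 in Nrg (difference 0.02 ± 0.58, SE), and its partner Rpl22 differed by 0.37 ± 0.31 (SE). Rpl7l1 was one of the steadiest members, between 5.91 and 6.26 in Vehicle and 5.93 and 6.08 in Nrg, with a difference of -0.12 against 0.56 for Rpl7. Rps27l, which p53 induces in human cells, had at most 13 reads in a Nrg library and differed by 0.45, and Rps27 differed by 1.92 ± 0.53 (SE) without overlap of the groups and without passing (adjusted p = 0.085, limma). Rpl3l, a form found in heart and skeletal muscle, was covered by 1, 0 and 5 Vehicle reads and by 0, 1 and 1 Nrg reads, too few to detect a difference, while Rpl3 differed by 0.77 ± 0.36 (SE, adjusted p = 0.37, limma). Rpl39, a short protein of the exit tunnel, was covered by 5, 0 and 0 Vehicle reads and by 5, 5 and 0 Nrg reads (difference 1.89, adjusted p = 0.181, limma). Rpl10 differed by 0.13 and Rps4x, the X-linked member, by 1.03 (adjusted p = 0.928 and 0.219, limma), the latter with separate groups.

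Many members had near-identical copies with values of their own, and whether these altered the members' values was not tested. The coding sequences of 81 members were searched against the transcripts of the table's other rows (GENCODE M21). At least 90% identity over at least 80% of the coding sequence was required, and 132 copies outside the family, belonging to 50 members, were found. Only 19231 of 20323 rows had a transcript, so a copy could be missed. Rpl32l and Rpl6l matched Rpl32 and Rpl6 (96.0 and 98.7% identity) and, being members, were not summed. The 4 pairs that follow are shown because summing with copies changed the result or the copy took most of the reads. Each line gives 60 coding bases of the gene and of its copy, with the bases that differ in capitals.
Rpl13a, coding bases 93 to 152: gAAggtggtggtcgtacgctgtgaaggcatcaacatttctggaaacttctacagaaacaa
Gm11478, its processed pseudogene: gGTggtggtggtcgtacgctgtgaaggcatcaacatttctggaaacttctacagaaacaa
Rps7, coding bases 100 to 159: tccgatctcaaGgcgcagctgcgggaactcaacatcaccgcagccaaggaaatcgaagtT
Gm6252, its processed pseudogene: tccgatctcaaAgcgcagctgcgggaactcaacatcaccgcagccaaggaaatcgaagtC
Rpl24, coding bases 254 to 313: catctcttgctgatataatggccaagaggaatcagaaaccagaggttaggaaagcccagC
Gm9385, its processed pseudogene: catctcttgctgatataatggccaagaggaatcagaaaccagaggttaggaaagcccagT
Rps27, coding bases 1 to 60: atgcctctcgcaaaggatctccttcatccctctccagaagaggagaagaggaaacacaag
Rps27rt, its retrogene: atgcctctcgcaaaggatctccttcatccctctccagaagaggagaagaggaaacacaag
Gene and copy differed at 8 of 593 aligned coding positions for Rpl13a, with 4 further bases in gaps and 15 of the 609 coding bases outside the alignment. They differed at 7 of 579 for Rps7, with 1 base in a gap and 3 of 582 outside, at 1 of 471 for Rpl24 and at 0 of 252 for Rps27. How the authors' counting placed reads that fit both is not given in the sources used here.

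The copies held a larger share of the family's signal in the deep libraries. Members and copies together made up 1.37, 0.785 and 0.728% of normalized counts in Vehicle and 0.736, 0.924 and 1.30% in Nrg. The copies' share of that sum was 49.4 and 51.4% in Vehicle libraries 1 and 3, 28.7% in Vehicle library 2, and 31.4, 31.1 and 28.9% in the Nrg libraries. Gm11478 stood at 12.52, 10.32 and 10.97 in Vehicle and 9.85, 10.29 and 11.57 in Nrg, above Rpl13a in every library, and the groups overlapped. Rps27rt had 10.62, 7.59 and 9.06 in Vehicle and 7.16, 8.13 and 9.11 in Nrg, again above Rps27 throughout. Gm9385 had 10.16, 7.28 and 8.68 in Vehicle and 8.22, 7.96 and 8.56 in Nrg. Of the 132 copies, 5 passed, all higher in Nrg (Gm8618, Gm15464, Gm5321, Gm5075 and Gm5621, by 2.28 to 2.92), where 0.438% of all genes rose and 0.625% fell. Gm5321 stood at 2.08, 2.00 and 2.04 in Vehicle and Gm8618 at 2.33, 2.83 and 2.16, near the level of no reads. The median difference of the copies was 0.46.

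When each member was summed with its copies, also a step added after the values were seen, 4 of 83 genes rose and 0 fell (limma over 20191 rows, where 0.505% rose and 0.728% fell; 28 members and 12.9% of all rows lay under an unadjusted p of 0.05). Rpl12, Rps21 and Rpl4 were among the 4, with Rps23 added (1.60 ± 0.39, SE, adjusted p = 0.0484, limma). Rpl13a with its copies stood at 12.53, 10.64 and 10.98 in Vehicle and 10.40, 10.93 and 11.87 in Nrg, and its difference turned to -0.32 ± 0.46 (SE, adjusted p = 0.763, limma). Rps7 kept a positive difference of 0.85 ± 0.32 (SE) without passing (adjusted p = 0.24, limma). Rps27 went from 1.92 alone to -0.71, and Rpl24 from 2.17 to -0.14. For the 50 members with a copy outside the family, the median difference went from 0.81 alone to 0.12 summed, and 21 of them changed sign. Of these 50, the members without overlap of the groups went from 11 to 4, all higher in Nrg. Over all genes, before summing, 7.37% were higher and 10.4% lower without overlap. The median was 0.75 for the 33 members with no copy found outside the family, and 0.35 for all 83 genes after summing, with 53 positive. After summing, the large subunit had a median of 0.23 with 28 of 51 positive. The small subunit had 0.65 with 25 of 32 positive, where 52.0% of all rows were positive. The 33 take in any member not searched and the near-identical pairs within the family, so they are not a copy-free set.

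**Figure D4:**
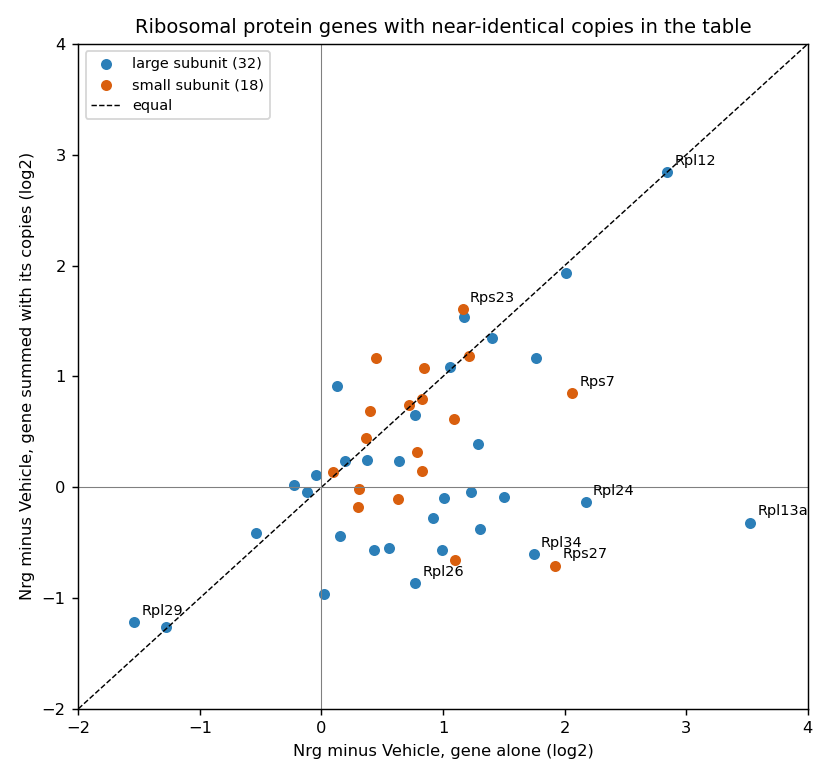
Difference between Nrg and Vehicle on the log2 scale for the 50 members that have near-identical copies, for the gene alone (horizontal) and after its normalized counts were summed with those of the copies (vertical); colours mark the subunit and the dashed line marks equal values. Rpl12 stays on the line, while Rpl13a moves from 3.52 to -0.32 and Rps27 from 1.92 to -0.71.

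The comparison was also read among libraries of like depth. With read depth class as a term in the fit, which leaves Vehicle library 2 alone against the 3 Nrg libraries and assumes that it varies like the others, 0 members passed (limma, 2 members and 8.51% of all genes at an unadjusted p under 0.05) and 0% of all genes were called. The median difference was then 0.36, against 0.07 over all genes, with 59 of 83 positive. Rpl12 differed by 2.07 ± 0.75, Rps7 by 1.10 ± 0.61, Rpl13a by 1.07 ± 0.40, Rps21 by 0.96 ± 0.74 and Rpl4 by 0.49 ± 0.35 (SE), all positive and none past the test (adjusted p from 0.553 to 0.799, limma). A contrast within a pair was added after the values were seen. Nrg library 3 was above Vehicle library 2 for 80 of 83 members by a median of 0.92. Over all genes it was above for 40.8%, with ties at no reads counted as not above, and the median was 0. Rpl15 (-0.46) and Rpl7l1 (-0.15) were lower and Rpl39 had no reads in either. This sets 1 animal against 1 other and has no replicate check, and the remaining Nrg libraries had centred family means of -0.17 and 0.36 against 0.06 in Vehicle library 2.

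**Figure D5:**
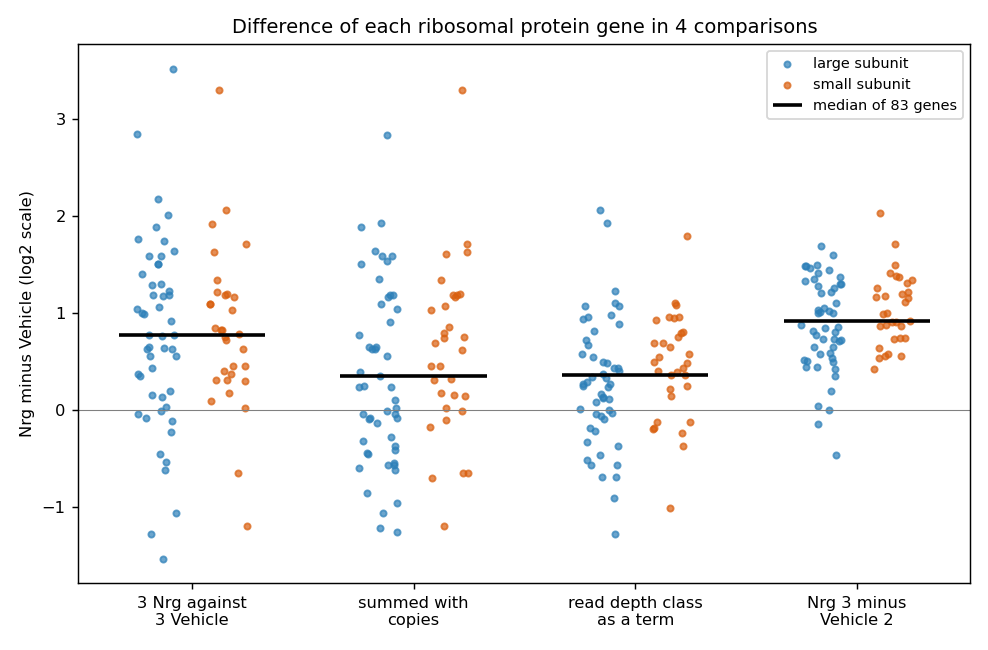
Difference between Nrg and Vehicle on the log2 scale for each of the 83 genes, by subunit, in 4 comparisons: all libraries, members summed with their copies, read depth class as a term, and Nrg library 3 minus Vehicle library 2. The black lines are the medians, 0.77, 0.35, 0.36 and 0.92.

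Other genes of the ribosome pathway were read beside the family. Of 15 further genes whose messages carry a 5′ terminal oligopyrimidine tract, 1 rose, 0 fell and 14 did not pass, with a median of 0.71 and 10 positive (7 higher and 0 lower at an unadjusted p under 0.05, 0 past limma-voom). The gene that rose was Tpt1, which encodes the translationally controlled tumour protein, with 7.50, 7.63 and 6.57 in Vehicle and 9.43, 9.58 and 8.49 in Nrg (difference 1.93 ± 0.35, SE, n = 3 each, adjusted p = 0.00965, limma). The initiation factor subunit genes Eif3h and Eif3e differed by 1.46 and 1.52 (adjusted p = 0.0527 and 0.141, limma), and Gas5, a host of small nucleolar RNAs, by 0.97, none past the threshold. Of the 5 remaining ribosomal or ribosome-bound genes outside the name rule, 0 passed (1 unadjusted, 0 with limma-voom): Fau differed by 1.36, Rack1 by -0.69, Rps27rt by -0.95 and Rpl36al by -0.51.

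Genes that build ribosomes were read in the same way. Of 38 nucleolar and assembly genes 0 passed (limma, 1 higher and 3 lower at an unadjusted p under 0.05, 0 with limma-voom), 15 were positive and the median was -0.12. Fbl, the methyltransferase fibrillarin, had 3.40, 3.73 and 2.82 in Vehicle and 5.13, 5.11 and 5.23 in Nrg (difference 1.84, adjusted p = 0.0836, limma), while Nop58 differed by -1.64, Ltv1 by -1.43 and Polr1a, the largest subunit of RNA polymerase I, by -0.99 without passing. Of 17 genes of mTORC1 signalling and ribosomal protein gene regulation 0 passed (1 higher and 1 lower unadjusted, 0 with limma-voom) with a median of 0.01. Myc differed by -1.88 ± 0.58, the translation repressor gene Eif4ebp2 by 1.34 ± 0.45, Larp1 by 0.50 ± 0.30 and Max by 0.45 ± 0.28 (SE), none past the threshold. Of 33 rows named as pseudogenes of the family 0 passed (5 higher and 3 lower unadjusted, 0 with limma-voom) and the median was -0.15. Rpl31-ps11, Rps19-ps3, Rps12-ps10 and Rpl5-ps2 had the smallest p among them, with differences of 1.72, 1.85, 1.99 and 1.01.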

How the data were processed

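Per the submitters' processing notes, reads were handled with Trimmomatic and Bowtie2; for versions, genome build, read counter, strand setting and scaling nothing was given in the sources used here. The authors deposited log2 values. In each library the lowest equals the log2 of 4, and after subtracting 4 from the unlogged values 100% were whole multiples of 1 step within 0.02, so they were read as log2(normalized count + 4), a reading taken from the values. Of 27102 rows, 6779 were blank in all libraries. The test was limma with an intensity trend (limma 3.58.1, R 4.3.3) and group as the only term. It covered all 20323 genes, with Benjamini-Hochberg adjustment at 0.05. The fit was also run on simulated counts. Those had the same dispersion for every gene and no pairs of like libraries, so they give no error rate for these data. Adjusted p come from the test over all 20323 genes except where a depth term, summed copies or a left-out library is named. Those come from separate limma fits, and limma-voom on recovered reads was an alternative. P-values set a difference against the spread between 3 libraries a group, moderated over genes. Within Vehicle, animal and read depth are not separated in that spread. Copies were found with blastn 2.17.0; that search and the summing were added after the values were seen.

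The family, lists and named genes were chosen with earlier results of these data known. Named were the 8 higher members (5 past the threshold, then by p), the 4 lower by p, the 4 nearest 0 above the family's median level, the paralogues with their partners, the stalk genes, Rpsa, Rps6 and Rpl41, and up to 4 genes a list by p; 1 member is counted and not reported here by name. Alternatives were a filter at a mean of 50, other pseudocounts (1 and 16), quantile and median scaling, a replicate block, a depth term and leaving out each library. GENCODE and RefSeq tables gave names and sequences, and their build was not matched to the authors'.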

Additional observations from a re-analysis of the deposited data

How the results depend on the processing

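The median difference of the 83 genes stayed positive under every alternative run, from 0.28 without Vehicle library 3 to 1.14 with limma-voom and library totals, while the number of members past the threshold (5) was not stable. It was 1 among genes averaging 50 normalized counts or more, 3 with a pseudocount of 1, 1 after quantile normalization, 17 after median centring (0.25 was then the median over all genes), 2 and 1 with limma-voom by library totals and by deposited scale factors, 0 with the depth term, and 0 to 1 when a library was left out. Over all genes the count (216) was 49, 129, 65, 499, 14, 22, 0 and 0 to 56 under the same alternatives in that order. With the replicate number as a block, 26 members (24 higher, 2 lower) and 627 genes passed; same-numbered libraries did not deviate together (r of -0.126, -0.00167 and -0.181 over all genes), so the numbers are not taken as pairs.

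Several differences changed sign, none of them passing after the change, among them those of Rpl13a (3.52, past the threshold), Rpl24 (2.17), Rplp2 (2.01), Rps27 (1.92) and Rpl32l (-1.07), which were not near 0. After quantile normalization Rps6 was -0.16, Rplp1 -0.076 and Rpsa -0.046. After median centring Rpl14 was 0.20, Rpl27a 0.17, Rpl8 0.13 and Rpl7l1 0.094, and with limma-voom Rpl27a was 0.065 (library totals) and 0.045 (scale factors). With the depth term Rpl32l was 0.94, Rps6 -0.37, Rpl14 0.33, Rpl8 0.58, Rpl10 -0.57, Rplp2 -1.28 and Rpsa -0.20. Summed with copies, Rpl13a was -0.32, Rpl24 -0.14, Rpl27a 0.11, Rpl22l1 -0.96, Rpl7 -0.55 and Rps27 -0.71, by construction through the copies' counts. With 1 library left out, Rps6 ranged from -0.86 to 0.55, Rpl14 from -0.52 to 0.66, Rpl27a from -0.51 to 0.41, Rpl8 from -0.41 to 0.31, Rpl22l1 from -0.50 to 0.67, Rps27l from -0.19 to 0.94, Rpl10 from -0.56 to 0.86, Rplp1 from -0.38 to 0.71 and Rpsa from -0.36 to 0.57. Beyond that construction, the cause of these changes was not tested. In the shallowest library 1 read equals 5.17 normalized counts, which limits members with few reads.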
